A study of Mus musculus with 8 samples.

Results

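Levels and shares of cells of 10 imprinted genes were measured by single-cell RNA-seq in mouse embryonic stem (mES) cells grown on feeders, with and without CX-5461, an inhibitor of RNA polymerase I. The genes were Snrpn, Mest, Peg3, Impact, Cdkn1c, Grb10, Meg3, Rian, H19 and Igf2, chosen by their GENCODE symbols, and each was found as 1 row in both count tables, so that 10 of 54146 gene rows are described. The ES cells were derived from the inner cell mass and were cultured in LIF/2i medium for 2 days on gelatin with mouse embryonic fibroblast (MEF) feeders. The control cells were untreated, and the other cells received CX-5461, for which the labels of these libraries give no dose and no time. The labels name 4 samples of each kind, but the table of each condition holds a single pool of cells whose names do not show the sample. Each condition was therefore 1 library, no difference between conditions has a replicate check, and no p-value is given. Intervals are 95% intervals that cover counting error only. The cells carry serial names in place of barcodes, so barcodes common to both libraries could not be counted.

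An imprinted gene is expressed mainly from the allele inherited from one parent, under the control of DNA methylation set in the germ line and kept through cell divisions. Many imprinted genes act on fetal growth, placenta, metabolism or behaviour, and most lie in clusters that share an imprinting control region. Snrpn, Mest, Peg3, Impact and Igf2 are known to be expressed from the paternal allele, whereas H19, Meg3, Rian and Cdkn1c are expressed from the maternal allele. Grb10 is maternally expressed in most tissues and paternally in neurons. UMI counts do not tell parental alleles apart, so all values below are sums over both alleles.

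The promoter sequences of Snrpn, Mest and Peg3 are shown here, the genes with the clearest differences between the libraries in ES cells, because CG dinucleotides in such promoters are where imprint methylation is known to be read. Each sequence is the 250 bases before a RefSeq transcript start (GRCm38.p6), 5′ to 3′ on the strand of the gene, in lower case with every CG in capitals. The start chosen was the one nearest to a principal GENCODE transcript.
Snrpn, chr7:60005200-60005449, minus strand: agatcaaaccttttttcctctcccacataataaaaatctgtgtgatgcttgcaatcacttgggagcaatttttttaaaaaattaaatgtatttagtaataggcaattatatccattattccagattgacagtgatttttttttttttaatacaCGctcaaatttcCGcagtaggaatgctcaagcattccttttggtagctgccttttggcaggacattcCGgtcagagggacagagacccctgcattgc
Mest, chr6:30737800-30738049, plus strand: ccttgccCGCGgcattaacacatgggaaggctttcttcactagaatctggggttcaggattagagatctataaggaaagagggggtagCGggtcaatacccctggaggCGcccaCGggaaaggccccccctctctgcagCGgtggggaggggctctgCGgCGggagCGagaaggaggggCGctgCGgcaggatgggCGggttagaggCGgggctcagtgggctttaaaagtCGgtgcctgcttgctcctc
Peg3, chr7:6730420-6730669, minus strand: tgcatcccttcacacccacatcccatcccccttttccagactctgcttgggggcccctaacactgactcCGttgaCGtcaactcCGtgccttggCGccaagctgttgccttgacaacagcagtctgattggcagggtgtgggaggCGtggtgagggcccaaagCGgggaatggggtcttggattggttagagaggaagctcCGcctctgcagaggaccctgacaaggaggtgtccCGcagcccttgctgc
The Mest window held 14 CG, the Peg3 window 8 and the Snrpn window 3, against a median of 6 over 32851 windows of the same length in the RefSeq table. The hexamer TGCCGC, the core motif that the imprint factor ZFP57 is known to bind, was searched on both strands and did not overlap another motif searched. It occurred 2 times in the Mest window, in neither of the other two, and in 8.68% of all windows. The table held promoters for 7 of the 10 genes, 17 windows in all, of which 3 held the hexamer, 2 of Mest and 1 of Meg3. These 2 Mest windows, chr6:30737800-30738049 and chr6:30737803-30738052, overlap and hold the same 2 hits. Promoters of H19, Cdkn1c and Impact were not used here.

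In GRCm38, Snrpn (ENSMUSG00000102252.5) lies at chr7:59982495-60140219, Peg3 at chr7:6703892-6730431, H19 at chr7:142575529-142578143, Igf2 at chr7:142650766-142666816 and Cdkn1c at chr7:143458339-143461050, all on the minus strand. Mest lies at chr6:30723547-30748465 on the plus strand and Grb10 at chr11:11930508-12038683 on the minus strand. Meg3 and Rian follow each other on the plus strand at chr12:109541001-109571726 and chr12:109603940-109661716. Impact lies on chromosome 18. GENCODE lists H19 and Meg3 as long intergenic RNAs, Rian as a processed transcript, and the other 7 genes as protein coding. Snrpn shares 589 exon bases with Gm38393 on the same strand and 216 with Snurf, and Igf2 shares 3596 exon bases with Gm49394, so counts of Snrpn and Igf2 are uncertain in how they were split from these neighbours.

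The filter of the study kept 3767 control cells and 4697 CX-5461 cells, asking for a minimum of 500 UMIs and for a mitochondrial share of UMIs no higher than 0.2. Cells in which Col1a1, Col1a2 and Col3a1 together made up at least 0.1% of UMIs are called feeders, and all others ES cells. This gave 3626 ES cells and 141 feeders in the control library, and 4551 ES cells and 146 feeders in the CX-5461 library. ES cells had a median of 12683 UMIs in control and 14075 in CX-5461, but 823 control ES cells held fewer than 3100 UMIs against 21 CX-5461 ES cells. The markers fitted the classes: in feeders, the 10 ES markers stood at a median of 5.98% (control) and 2.90% (CX-5461) of their ES level, with Klf4 the exception at 176% and 140%. The ES transcription factor gene Pou5f1 nonetheless gave at least 1 UMI in 55.3% of control feeders and 28.1% of CX-5461 feeders, against 87.8% and 97.8% of ES cells. In ES cells the 18 fibroblast genes outside the gate, here called feeder reference genes, summed to 30.6 UMIs per 1000000 UMIs of the class (CPM) in control and 22.9 CPM in CX-5461, against 1521 and 2760 CPM in feeders. Markers of other cell types also differed between the ES classes. Of 5 macrophage genes, Lyz2 was at 11.03 CPM in control and 0.0308 CPM in CX-5461, Tyrobp at 3.31 and 0.0154, C1qa at 1.02 and 0.0154 and Ptprc at 0.0865 and 0, whereas Cd68 was at 8.16 and 26.8 CPM, so that the list summed to 23.6 and 26.9 CPM. The 6 extraembryonic endoderm genes summed to 1.62 and 3.51 CPM in ES cells but did not move together. Gata6 was at 0.433 and 2.55, Gata4 at 0.0433 and 0.323 and Sox17 at 0.0433 and 0.138 CPM. Dab2 was lower in CX-5461, at 0.844 and 0.384 CPM, as were Sox7 at 0.173 and 0.0308 and Foxa2 at 0.0865 and 0.0769 CPM. The 6 trophoblast genes summed to 28.5 and 32.7 CPM and also went both ways. Tfap2c was at 12.6 and 23.7, Cdx2 at 2.99 and 3.61, Gata3 at 0.584 and 1.05 and Elf5 at 0.0216 and 0.0461 CPM. Krt8 was lower in CX-5461, at 9.43 and 1.74 CPM, as was Krt18 at 2.83 and 2.60 CPM. Their part in the results below was not tested.

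The 10 genes fell into 3 kinds by their level in the classes. Snrpn, Mest and Impact were at least as high in ES cells as in feeders, Meg3, Rian and Peg3 were clearly present in both, and H19, Igf2, Grb10 and Cdkn1c were more than 8 times higher per UMI in feeders. A ratio of CX-5461 over control is given below relative to the median gene of the class, because the median of 15684 genes with at least 50 UMIs in ES cells stood at 1.31 times control and that of 7830 genes in feeders at 1.12 times control. A gene at 1.5-fold or more from this median is called higher or lower. In ES cells, 2 of 10 imprinted genes were called higher (Peg3, Cdkn1c) and 4 lower (Snrpn, Mest, H19, Igf2), against 24.2% of all tested genes called higher and 19.8% called lower. In either direction 44% of all genes passed the fold, and the 6 of 10 imprinted genes past it are to be read against that share. The median of the 10 genes was -0.31 on the log2 scale, against 0 for all genes by construction. Relative to the class totals alone, the split was 3 higher (Peg3, Cdkn1c, Grb10) and 3 lower (Snrpn, Mest, H19). The share of all genes past the fold on the class totals was not counted, here or below.

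**Figure D1:**
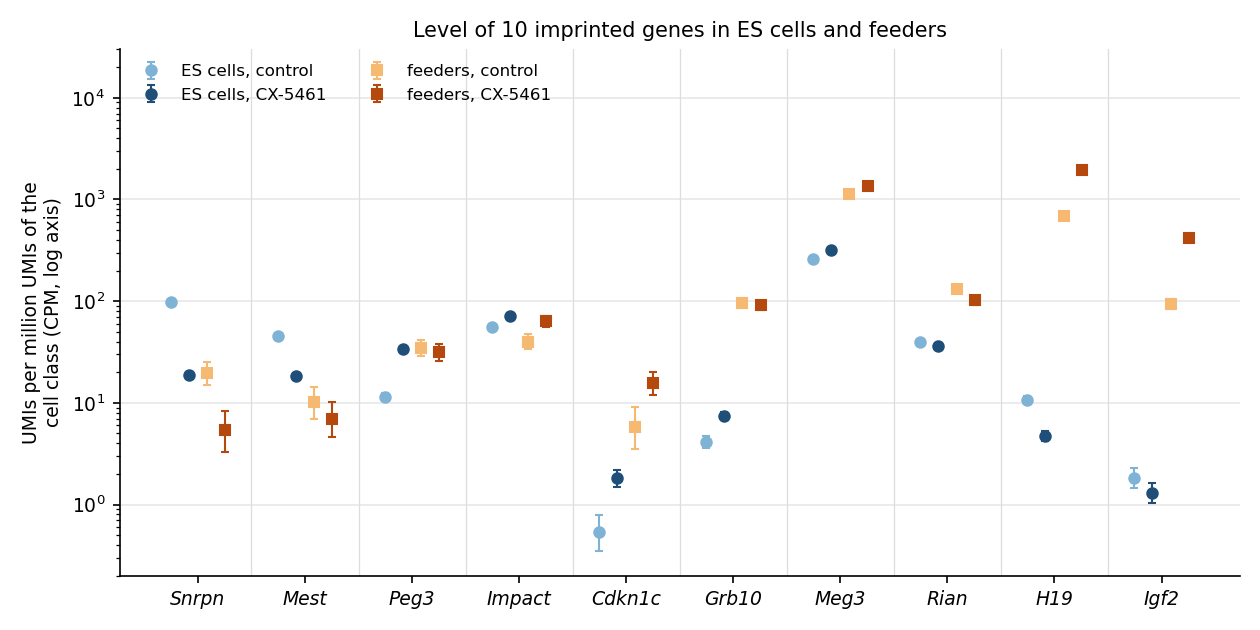
Level of each gene in UMIs per 1000000 UMIs of the class (CPM, log axis), for ES cells (circles) and feeders (squares) of the control (light) and CX-5461 (dark) libraries, with 95% Poisson intervals as bars. Snrpn was at 97.7 and 18.99 CPM in the control and CX-5461 ES cells, while H19 was at 694 and 1947 CPM in feeders and at or below 10.8 CPM in ES cells.

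Snrpn, which encodes the SmN protein of the spliceosome and lies in the region matching the human Prader-Willi locus, was the gene that differed most. It was at 97.7 CPM in control ES cells (4516 UMIs, interval 94.9 to 101) and at 18.99 CPM in CX-5461 ES cells (1235 UMIs, interval 17.9 to 20.1). The ratio relative to the median gene was 0.148 (interval 0.139 to 0.157). The difference was spread over cells rather than held by a few: 51.8% of control ES cells and 19.7% of CX-5461 ES cells had a Snrpn UMI. With every cell thinned at random to 3100 UMIs, which left 2803 control and 4530 CX-5461 ES cells, the shares were 24.5% (interval 22.9 to 26.1) and 5.36% (interval 4.73 to 6.06). In feeders Snrpn was at 19.6 CPM in control (64 UMIs) and 5.40 CPM in CX-5461 (20 UMIs), a ratio of 0.246 (interval 0.141 to 0.411), so Snrpn was called lower in both classes. In feeders thinned to 3100 UMIs, where 4.29% and 2.74% of cells had a UMI, the log2 ratio of -2.03 went to -0.47, within the fold. The feeder level of Snrpn was 20.1% and 28.4% of its ES level, above the median for the ES markers.

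Snrpn was also followed across subsets of ES cells. In CX-5461 it was at 18.97 CPM in the 4029 cells of 5000 UMIs or more whose mitochondrial share was up to 0.1, 20.5 CPM in 196 shallower cells, 19.1 CPM in 326 cells with a higher mitochondrial share, and 24.1 CPM in 51 cells with at least 5 UMIs of Zscan4 genes, a mark of the 2C-like state (interval 14.0 to 38.5). Those levels overlapped in their intervals. In control it was at 100.3 CPM in the 2513 cells that met the same limits, and at 56.2 CPM (interval 47.6 to 65.8) in 1106 cells under 5000 UMIs, so the shallow control cells held less Snrpn per UMI. The 9 control cells with at least 5 Zscan4 UMIs had 150 CPM on 16 UMIs. Snurf, whose exons Snrpn shares in part, was also lower in ES cells (0.714 and 0.308 CPM, ratio 0.328), whereas Gm38393 stood at 5.02 and 5.17 CPM.

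Mest, which encodes a protein of the alpha/beta hydrolase family tied to fetal growth, was the second gene with a lower level in the ES cells of the CX-5461 library. It was at 45.2 CPM in control ES cells (2091 UMIs) and 18.2 CPM in CX-5461 ES cells (1186 UMIs), a ratio of 0.307 relative to the median gene (interval 0.285 to 0.329). The share of thinned ES cells with a UMI was 13.8% in control and 5.01% in CX-5461. Feeders held 10.1 CPM in control on 33 UMIs and 7.01 CPM in CX-5461 on 26 UMIs. The feeder ratio of 0.619 passed the fold, but its interval from 0.356 to 1.07 included the median gene, and the call was lost on the class totals (log2 -0.53) and with feeder gates of 0.05% (-0.54) and 0.2% (-0.35). Copg2, which overlaps Mest on the other strand, was within the fold in ES cells (10.1 and 10.7 CPM, ratio 0.811), and whether strand was used in counting is not given in the sources used here.

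Peg3, a zinc finger gene known for its part in maternal behaviour and growth, differed the other way in ES cells. It was at 11.4 CPM in control (526 UMIs) and 34.0 CPM in CX-5461 (2213 UMIs), a ratio of 2.27 relative to the median gene (interval 2.07 to 2.51). Of the thinned ES cells, 3.75% of control cells and 9.78% of CX-5461 cells had a Peg3 UMI, and no ES cell held more than 5 UMIs in control or 8 in CX-5461. In feeders the levels were 34.9 CPM on 114 UMIs and 31.6 CPM on 117 UMIs, within the fold. Feeders thus held 3.07 times the ES level in control (interval 2.48 to 3.76) and 0.928 times in CX-5461 (interval 0.764 to 1.12), so the gap between the classes seen in control was not seen in the CX-5461 library.

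Impact, whose protein restrains activation of the stress kinase GCN2, was close to the median gene. Its level was 55.8 CPM in control ES cells and 71.1 CPM in CX-5461 ES cells, a ratio of 0.969 (interval 0.923 to 1.02). Feeders had 40.1 and 63.1 CPM, a ratio of 1.40 (interval 1.13 to 1.75), within the fold. The gene was seen in 43.1% of control and 59.3% of CX-5461 ES cells at deposited depth, and in 16.1% and 20.1% after thinning.

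Meg3 and Rian, maternally expressed noncoding RNAs of the Dlk1 to Dio3 region, were detected in both classes. Meg3 had the highest level of the 10 genes in ES cells, at 262 CPM in control and 322 CPM in CX-5461, and stood at 1137 and 1371 CPM in feeders. Its ratio was 0.933 in ES cells (interval 0.912 to 0.954) and 1.08 in feeders (interval 1.03 to 1.12), both within the fold. Rian was at 39.6 and 36.3 CPM in ES cells and at 132 and 102 CPM in feeders. Its ratio of 0.697 in ES cells (interval 0.656 to 0.742) and 0.687 in feeders (interval 0.597 to 0.791) stayed just short of the fold. Feeders held more of both: 4.34 and 4.26 times the ES level for Meg3, and 3.34 and 2.81 times for Rian.

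Among the ES-expressed genes, Meg3 had the largest variance of UMIs per cell relative to the mean, and also the highest mean. After thinning, the mean was 0.835 Meg3 UMIs in control ES cells and 1.02 in CX-5461 ES cells, against 0.300 and 0.0574 for Snrpn. The variance of Meg3 UMIs per cell was 2.28 times the mean in control and 2.04 times in CX-5461, where counting alone gives 1. This ratio grows with the mean where cells differ, so it does not rank genes of unlike level by unevenness. The same quantity was 1.14 and 1.10 for Snrpn, 1.01 and 1.08 for Mest, 1.00 and 1.08 for Peg3, 1.11 and 1.07 for Impact, and 1.10 and 1.08 for Rian. A Meg3 UMI was absent from 55.9% of thinned control ES cells, where a Poisson count of the same mean gives 43.4%, and from 49.2% of CX-5461 ES cells, where it gives 36.2%. At least 3 Meg3 UMIs were found in 9.31% and 12.5% of these cells. Among ES cells of 5000 UMIs or more with a mitochondrial share up to 0.1, the median cell had 175 CPM of Meg3 in control and 220 CPM in CX-5461, and the highest cells reached 3941 and 4161 CPM. The 326 CX-5461 ES cells with at least 5000 UMIs and over 0.1 mitochondrial held 592 CPM, and ES cells under 5000 UMIs held 462 CPM in control and 412 CPM in CX-5461, so Meg3 was higher per UMI where depth was low or the mitochondrial share was high. Across thinned ES cells, Pearson's r of Meg3 with its neighbour Rian was 0.10 over 2803 control cells and 0.14 over 4530 CX-5461 cells, a weak relation between sparse counts that share library and depth.

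**Figure D2:**
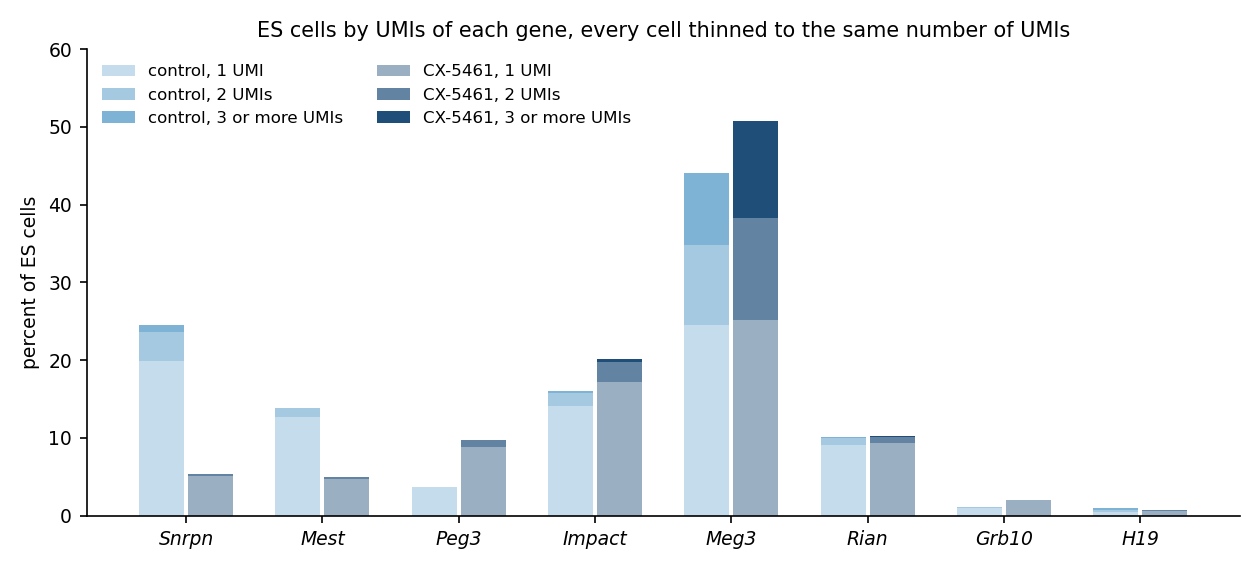
Percent of ES cells with 1, 2 or at least 3 UMIs of each gene (y axis) after every cell was thinned to 3100 UMIs, for the control (light blue) and CX-5461 (dark blue) libraries. The bars for Snrpn sum to 24.5% and 5.36%, those for Peg3 to 3.75% and 9.78%, and Meg3 is the gene with a wide band of cells holding at least 3 UMIs.

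H19, a maternally expressed noncoding RNA, and its neighbour Igf2, the paternally expressed insulin-like growth factor, were found in the feeders. H19 was at 694 CPM in control feeders (2267 UMIs) and at 1947 CPM in CX-5461 feeders (7217 UMIs). Igf2 was at 94.0 CPM (307 UMIs) and 418 CPM (1549 UMIs). Relative to the median gene, H19 was 2.50 times higher in CX-5461 feeders (interval 2.39 to 2.62) and Igf2 3.96 times higher (interval 3.51 to 4.50). After thinning, an H19 UMI was present in 45.7% of 140 control feeders and 79.5% of 146 CX-5461 feeders, and an Igf2 UMI in 22.9% and 61.0%. Among feeders within the same limits, the median cell went from 203 to 1471 CPM of H19 and from 51.0 to 316 CPM of Igf2, so the typical cell differed as well as the sum. The gate collagens themselves were higher in the CX-5461 feeders, 3643 CPM against 2279 CPM, as were the summed feeder reference genes. In feeders with at least 0.2% of UMIs from the gate collagens, 66 control cells held 645 CPM of H19 against 1918 CPM in 119 cells of the CX-5461 library, and 95.2 against 423 CPM of Igf2. With the gate at 0.5%, which left 11 control and 34 CX-5461 feeders, the log2 ratio of H19 was 0.43, within the fold, and that of Igf2 stayed past it. Gm49394, which shares exon bases with Igf2, followed it in feeders with 152 and 580 CPM.

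In the feeders as a whole, 3 of the 10 genes were called higher (Cdkn1c, H19, Igf2) and 2 lower (Snrpn, Mest), against 15.9% of 7830 tested genes called higher and 16.6% called lower. In either direction 32.5% of all genes passed, compared with 5 of 10 imprinted genes, whose median was -0.06 on the log2 scale. On the class totals, where the median gene stood at 1.12 times control, the split was 4 higher, with Impact added, and 1 lower, Snrpn.

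In ES cells, H19 and Igf2 stood at a percent of their feeder level close to that of other fibroblast genes. H19 was at 10.8 CPM in control ES cells and 4.77 CPM in CX-5461 ES cells, or 1.55% and 0.245% of its feeder level. Igf2 was at 1.84 and 1.31 CPM, or 1.96% and 0.313% of its feeder level. The feeder reference genes with at least 50 feeder UMIs stood at a median of 1.86% of their feeder level in control ES cells (16 genes, 0.831% to 6.28%) and 0.301% in CX-5461 ES cells (17 genes, 0.149% to 7.93%). The highest of them in both libraries was Pdgfrb, which encodes a platelet-derived growth factor receptor.

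Most H19 UMIs of control ES cells came from a few cells that also held fibroblast RNA. In control, 30 ES cells with at least 2 H19 UMIs carried 89.3% of all 497 H19 UMIs, and 28 of them had a UMI of a gate collagen or a feeder reference gene. Over all control ES cells, 11.004% had a UMI of either kind. In CX-5461, 14 such cells carried 61.9% of 310 UMIs, 10 of them had a UMI of either kind, against 30.7% of all ES cells, and 118 of the 132 cells with H19 held exactly 1 UMI. Leaving out ES cells with at least 5 UMIs of the feeder reference genes, 55 cells in control and 32 in CX-5461, H19 was at 1.44 and 2.42 CPM and Igf2 at 0.355 and 0.697 CPM. The log2 ratios of H19 and Igf2 relative to the median gene, -1.57 and -0.89 over all ES cells, were then 0.32 and 0.55, within the fold. Between 0.05% and 0.1% of UMIs from the gate collagens, just outside the gate, lay 34 control cells and 6 CX-5461 cells. The part of these cells in the lower calls was not tested. In ES cells with no gate collagen UMI at all, H19 was at 0.201% of its feeder level in control and 0.127% in CX-5461, and Igf2 at 0.402% and 0.174%, with the reference genes at medians of 0.230% and 0.176%.

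Grb10, an adaptor that dampens insulin and insulin-like growth factor receptor signalling, had similar feeder levels in both libraries, 95.3 CPM in control and 91.2 CPM in CX-5461. In ES cells it was at 4.13 CPM (191 UMIs) and 7.44 CPM (484 UMIs), a ratio of 1.37 relative to the median gene (interval 1.16 to 1.63) that was within the fold. Feeders held 23.1 times the ES level in control and 12.3 times in CX-5461. The ES level was 4.34% of the feeder level in control (interval 3.60 to 5.21) and 8.16% in CX-5461 (interval 7.09 to 9.41), so it lay under the highest reference gene in control, reached it in CX-5461, and was above the median reference gene in both. In CX-5461 its UMIs were scattered over 446 ES cells, 409 of them with 1 UMI, and 10 of the 446 had at least 5 UMIs of the feeder reference genes. Without the ES cells that had at least 5 such UMIs, Grb10 was at 2.33 and 7.28 CPM, and its log2 ratio of 1.22 passed the fold.

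Cdkn1c, which encodes the cell cycle inhibitor p57, was the gene with the lowest counts. It had 25 UMIs in control ES cells (0.541 CPM) and 118 UMIs in CX-5461 ES cells (1.81 CPM), a ratio of 2.55 relative to the median gene (interval 1.65 to 4.10). Feeders held 19 UMIs (5.82 CPM) and 58 UMIs (15.6 CPM), a ratio of 2.40 (interval 1.41 to 4.27). It was therefore called higher in both classes. At 3100 UMIs per cell, where 0.321% and 0.353% of ES cells had a UMI, both calls were lost, with log2 ratios of 0.05 in ES cells and -0.20 in feeders. In the 51 CX-5461 ES cells with at least 5 Zscan4 UMIs it was at 24.1 CPM (17 UMIs in 5 cells, interval 14.0 to 38.5), against 1.52 CPM in 4372 cells with none (interval 1.23 to 1.86). The 9 control cells with as many Zscan4 UMIs held 1 Cdkn1c UMI.

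**Figure D3:**
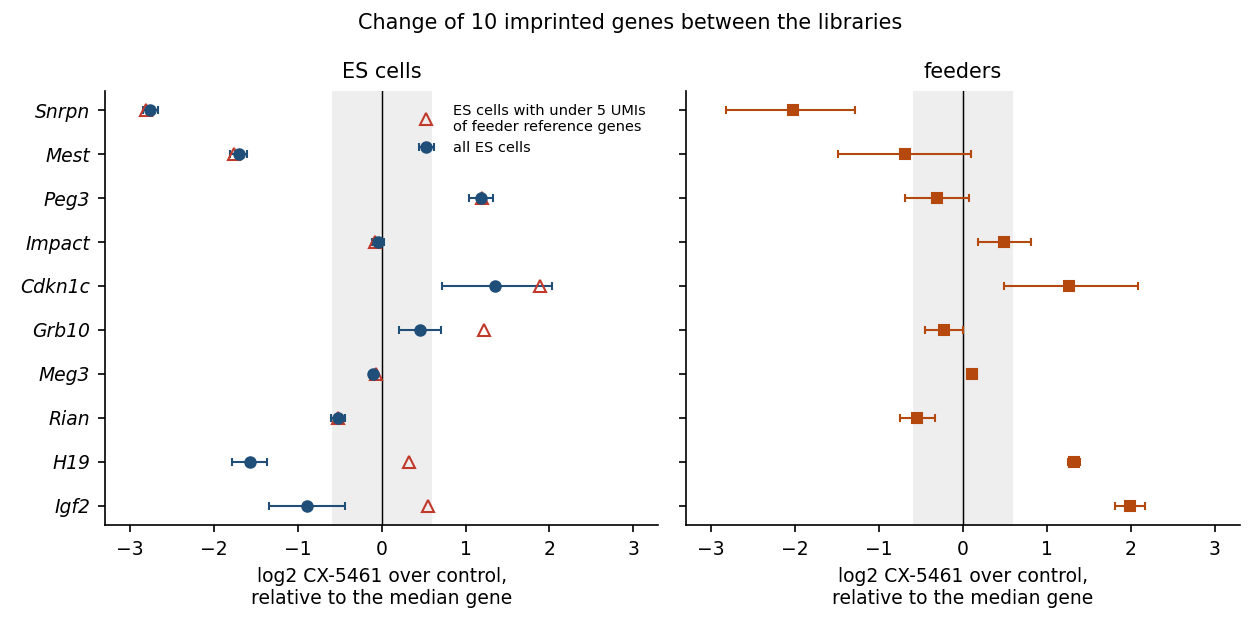
Log2 of CX-5461 over control relative to the median gene (x axis) for each gene in ES cells (left) and feeders (right), with 95% counting intervals and the zone within 1.5-fold in grey. Triangles show ES cells with under 5 UMIs of the feeder reference genes, where H19 and Igf2 move to 0.32 and 0.55 and Grb10 to 1.22, while Snrpn, Mest and Peg3 keep their place.

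Which of the genes were carried by feeders only was asked with a rule of 2 conditions: at least 10-fold higher in feeders in both libraries, with an ES level not above the highest feeder reference gene within its interval. The fold was passed in both libraries by 3 of 10 genes, H19 (64.6 and 408 times), Igf2 (51.1 and 320 times) and Grb10 (23.1 and 12.3 times), against 6.6% of 16185 tested genes in control, 5.28% in CX-5461 and 4.46% in both. Cdkn1c passed it in control at 10.8 times (interval 5.60 to 20.3) and not in CX-5461 at 8.62 times (interval 6.19 to 11.9). All 3 genes met the second condition, so the rule named H19, Igf2 and Grb10. Its limit was set by Pdgfrb in both libraries. Among ES cells without a gate collagen UMI, Pdgfrb still stood at 4.60% and 7.57% of its feeder level, against reference medians of 0.230% and 0.176%. The second condition could therefore pass a gene that is itself detected in ES cells. The share of all genes that meet both conditions was not counted. With the median reference gene in place of the highest, only H19 and Igf2 remained. In ES cells without a gate collagen UMI, Grb10 was at 2.43% of its feeder level in control, above 15 of 16 reference genes, and at 8.004% in CX-5461, above all 17. Grb10 was thus detected in ES cells beyond the level of most reference genes, whereas H19 was below 9 of the 16 reference genes in control and 10 of the 17 in CX-5461, and Igf2 below 5 and 9 of them.

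**Figure D4:**
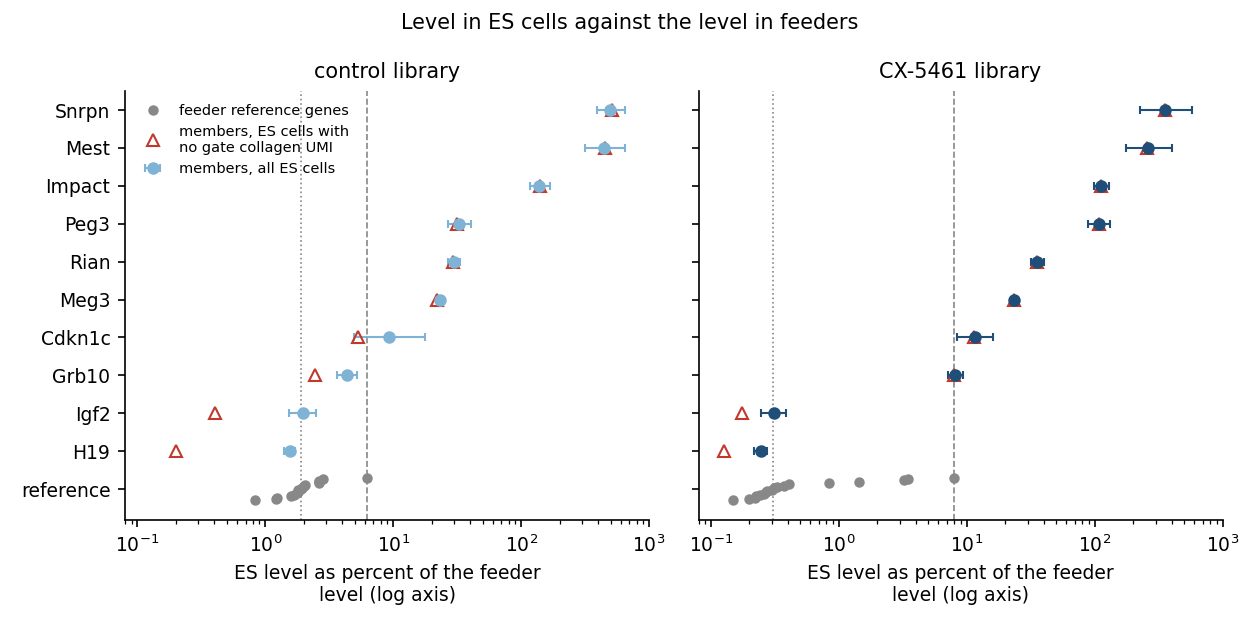
Level in ES cells as a percent of the level in feeders (log x axis) for each gene in the control (left) and CX-5461 (right) libraries, with 95% counting intervals for all ES cells as circles and ES cells with no gate collagen UMI as triangles. Grey points are the feeder reference genes, with their median (dotted) and highest value (dashed). H19 at 1.55% and 0.245% and Igf2 at 1.96% and 0.313% lie among them, Grb10 lies at 4.34% and 8.16%, and Snrpn and Mest lie above 100%.

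A 3′ UMI count counts transcript ends and does not grow with transcript length, so levels in CPM were ordered between genes. Other effects on counting that differ between genes, such as reads shared with overlapping genes, were not corrected. The order is therefore one of counts. Control ES cells held Meg3, Snrpn, Impact, Mest, Rian, Peg3, H19, Grb10, Igf2 and Cdkn1c in falling order. The intervals of Peg3 and H19 overlapped (10.4 to 12.4 and 9.83 to 11.7 CPM), and all other neighbours in that order had separate intervals. The places of H19 and Igf2 depend on cells that also held fibroblast RNA. Without the 55 control ES cells with at least 5 UMIs of the feeder reference genes, H19 was at 1.44 CPM, below Grb10 at 2.33 CPM. Igf2 and Cdkn1c were then both at 0.355 CPM. In CX-5461 ES cells the order was Meg3, Impact, Rian, Peg3, Snrpn, Mest, Grb10, H19, Cdkn1c and Igf2. There the intervals overlapped between Rian and Peg3, between Snrpn and Mest, and between Cdkn1c and Igf2. That order also held without the 32 CX-5461 ES cells with at least 5 UMIs of the feeder reference genes. In control feeders the order was Meg3, H19, Rian, Grb10, Igf2, Impact, Peg3, Snrpn, Mest and Cdkn1c, with overlapping intervals between Grb10 and Igf2, Impact and Peg3, and Mest and Cdkn1c. The place of Igf2 depends on how its reads were split from Gm49394. This holds for ES cells too, where control held 111 UMIs of Gm49394 beside 85 of Igf2. In CX-5461 feeders H19 came first, ahead of Meg3 and Igf2.

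The genes whose 4 levels were nearest to each member, by Euclidean distance over log2(CPM + 1) in both classes of both libraries among 12358 genes, were looked up for each of the 10. They were Unc13d and Sinhcaf for Snrpn at distances of 0.91 and 1.01, Rbm14 and Adi1 for Mest at 0.34 and 0.46, and Homer3 and Prcp for Peg3 at 0.27 and 0.49. H19 was nearest to the chemokine gene Ccl2 at 0.80, which had 17.3 and 7.01 CPM in ES cells and 682 and 1861 CPM in feeders, and then to Ccl7 at 1.21. Igf2 was nearest to the fibroblast matrix gene Postn at 0.40 and to Dcn at 0.69. The nearest genes were Parva and Akt1 for Grb10 at 0.30 and 0.67, Gm13056 and Orai2 for Cdkn1c at 0.36 and 0.43, Npc2 and Cd63 for Meg3 at 0.44 and 0.71, Leprotl1 and Ap3s1 for Rian at 0.30 and 0.33, and Dmac1 and Gm13370 for Impact at 0.11 and 0.14. Since the likeness rests on 4 points, it is a description only.

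The wider set of 47 other imprinted genes was looked at in the same way. Of these, 38 had at least 50 UMIs in ES cells, of which 10 were called higher, 7 lower and 21 were within the fold, close to the 24.2% and 19.8% of all tested genes. The median log2 was 0.12, and 22 of 38 were above the median gene. Relative to the class totals, where the median gene itself stood at 1.31 times control, 17 were higher and 4 lower. The genes called higher were Dio3, Begain, Igf2r, Ndn, Usp29, Slc22a18, Ascl2, Cd81, Osbpl5 and Trappc9, and those called lower were Dlk1, Peg10, Plagl1, Nnat, H13, Snurf and Sfmbt2. Dlk1 was at 3.01 and 1.03 CPM over all ES cells but at 1.04 and 0.908 CPM in ES cells with no gate collagen UMI. Cd81, which encodes a tetraspanin, was the most abundant of those called higher, at 184 CPM in control and 481 CPM in CX-5461 ES cells. Begain was at 0.281 and 3.32 CPM, a ratio of 8.98, and Dio3, which encodes a deiodinase that inactivates thyroid hormone, at 1.54 and 7.995 CPM, a ratio of 3.96. In feeders 21 of the 47 genes were tested, of which 5 were called higher (Sgce, Igf2r, Commd1, Slc22a18, Tssc4) and 3 lower (Mirg, Plagl1, Kcnq1ot1), against 15.9% and 16.6% of all tested genes. On the class totals, where the median gene stood at 1.12 times control, 7 were higher and 1 lower. Igf2r, the receptor that clears IGF2 protein, was called higher in both classes, at 4.41 and 12.5 CPM in ES cells and 26.3 and 96.3 CPM in feeders.

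Calls in both directions were found in the Snrpn and Meg3 regions, and in 1 direction or none in the other regions. The lower call in the Meg3 region was Dlk1, which was at 1.04 and 0.908 CPM in ES cells with no gate collagen UMI. The lower calls of H19 and Igf2 were lost in ES cells with under 5 UMIs of the feeder reference genes. In the Snrpn region, Snrpn and Snurf were called lower, Ndn, a gene of the same region that encodes necdin, was called higher (5.69 and 11.7 CPM, ratio 1.56), and Snhg14, Ube3a, Mkrn3 and Peg12 were within the fold. In the Peg3 region, Usp29, which is transcribed from the same control region as Peg3, was also called higher (0.389 and 1.66 CPM, ratio 3.24), and Zfp264 was within the fold. In the Kcnq1ot1 region, 5 of 8 tested genes were called higher, among them Cdkn1c, Slc22a18 and Cd81, and none lower, with a median log2 of 1.05, against 24.2% of all tested genes called higher, while Kcnq1ot1 itself was at 79.0 and 115 CPM and within the fold at 1.10. In the Meg3 region, Dlk1, a paternally expressed ligand-like membrane protein gene, was called lower, with 58.8 and 70.9 CPM in feeders, and Dio3 and Begain were called higher. Of the 39 other imprinted genes tested, 4 were at least 10-fold higher in feeders in both libraries, against 4.46% of all tested genes. They were Dlk1, Airn, Gnas and Osbpl5. The rule for feeders only named Dlk1, Airn and Osbpl5, or Airn alone with the median reference gene. Osbpl5 and Dlk1 were detected in ES cells with no gate collagen UMI. There Osbpl5 was at 0.0708 CPM in control and 0.781 CPM in CX-5461, on 43 UMIs in 43 cells. In CX-5461 this was 3.15% of its feeder level, and 2 of 17 reference genes lay above it. For Dlk1, 1 of 16 reference genes lay above it in control and 4 of 17 in CX-5461.

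**Figure D5:**
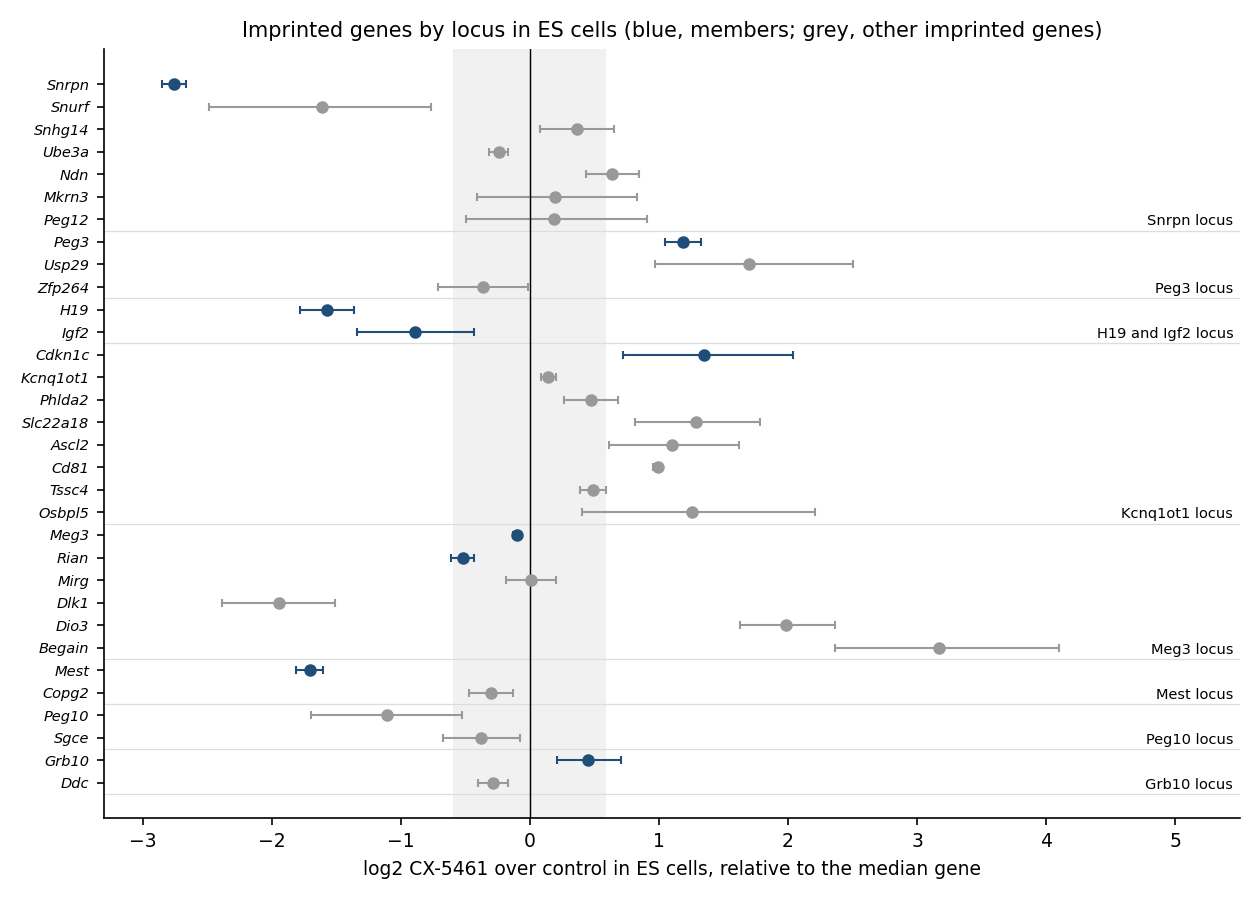
Log2 of CX-5461 over control in ES cells relative to the median gene (x axis) for the tested imprinted genes of 8 clusters, with 95% counting intervals, the members in blue, other imprinted genes in grey and the zone within 1.5-fold shaded. Snrpn at -2.76 and Ndn at 0.64 lie apart within one cluster, and 5 of the 8 genes of the Kcnq1ot1 cluster lie to the right of the shaded zone.

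The factors known to protect or read imprints were mostly within the fold in ES cells, where 44% of all tested genes passed it. Of 8 such genes, 7 were within the fold, none was called higher and Ctcf, which encodes the insulator protein that binds the H19 and Igf2 control region, was called lower (52.2 and 42.2 CPM, ratio 0.615, interval 0.582 to 0.650). On the class totals, where the median gene stood at 1.31 times control, Ctcf was within the fold at 0.808. Dppa3, Arid4a and Arid4b were higher on that scale at 1.62, 1.69 and 1.71. Zfp57 was at 51.5 and 52.9 CPM, a ratio of 0.781, and its corepressor gene Trim28 at 168 and 148 CPM, a ratio of 0.671 that lay just short of the fold. Dppa3, which shields maternal methylation in the zygote, was at 13.9 and 22.6 CPM, a ratio of 1.23.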

How the data were processed

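Libraries were made with 10x Single Cell 3′ V2 reagents, and the authors produced digital expression matrices with a published droplet pipeline. Per the labels, the genome build was mm10 and Seurat v2.3.4 was used. The published pipeline used Bowtie, which the authors replaced with HISAT2 for repeat sequences, not analysed here. The use of strand in counting is not given in the sources used here. The deposited values are raw UMI counts per gene and cell (1 table of 3838 control and 1 of 4922 CX-5461 barcodes, 49610287 and 69841836 UMIs), beside a total per gene of ambiguous counts, which the authors did not assign to 1 gene and which was only read. No column was unused (0). Gene IDs matched GENCODE vM21 (GRCm38) for 54079 of 54146 rows.

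Cells were kept from 500 UMIs upward if their mitochondrial share was no higher than 0.2, which left more cells than the study plots. No doublet caller was run. Feeders held at least 0.1% of UMIs in Col1a1, Col1a2 and Col3a1. UMIs were summed per library and class (python v3.11.15, numpy v2.4.6, scipy v1.17.1). Ratios carry exact conditional binomial intervals, levels Poisson intervals and shares of cells Clopper-Pearson intervals, and PCR duplicates beyond the UMI were not modelled. Cells were thinned to 3100 UMIs with a fixed seed. Alternatives included the TMM factor (edgeR v4.0.16, R v4.3.3), the class totals, other gates and other cell filters. The ratio step was tested on simulated counts. The members, gene lists and rules were chosen with earlier results of these data known. The genes named were the 10 members, other imprinted genes past 1.5-fold in ES cells or 10-fold in feeders, and the 2 nearest genes of each member with at least 200 UMIs. Neighbouring and overlapping genes, the imprint factors and genes within the fold were named beside them after their values were seen.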

Additional observations from a re-analysis of the deposited data

Results flagged for a closer look

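H19 and Igf2 differed in opposite directions in the 2 cell classes. Relative to the median gene, the log2 of CX-5461 over control was -1.57 for H19 in ES cells and 1.32 in feeders, and -0.89 for Igf2 in ES cells and 1.99 in feeders. With 1 library of each condition, the difference between the classes was not tested. Beside it stand the ES cells with at least 5 UMIs of the feeder reference genes, 55 in control and 32 in CX-5461, in which H19 was at 371 and 340 CPM and Igf2 at 59.2 and 88.4 CPM. Without these cells the log2 values in ES cells were 0.32 for H19 and 0.55 for Igf2, so that the opposite directions were no longer seen.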

How the results depend on the processing

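Over 47 alternatives, the counts of imprinted genes past 1.5-fold in ES cells (6), past 10-fold in feeders (3) and carried by feeders only (3) ranged from 4 to 7, 2 to 4 and 2 to 4. All lay within 1.5 times of the main count, a wide limit for counts this small. A like count does not mean the same genes. In ES cells with under 5 UMIs of the feeder reference genes, H19 and Igf2 left the calls and Grb10 joined them. Of the ES ratios of single genes under 172 alternatives, 158 kept their sign, and of the feeder ratios under 162 alternatives, 157 kept it. Reversals were counted for called genes only, 7 in ES cells and 1 in feeders. The other changes of sign were in genes not called. Beside the reversed values, 39 ES values and 24 feeder values lay outside their main interval. The log2 ratio of H19 in ES cells turned to 0.40 with a feeder gate of 0.5%, 0.41 in ES cells with no gate collagen UMI and 0.32 in ES cells with under 5 UMIs of the feeder reference genes. That of Igf2 in ES cells turned to 0.98, 0.53 and 0.55 under the same settings and to 0.23 with cells thinned to 3100 UMIs. That of Cdkn1c in feeders turned to -0.20 in thinned cells, where 2 cells of each library held a UMI. The same thinning ended the calls of Cdkn1c in ES cells (0.05) and Snrpn in feeders (-0.47), and a feeder gate of 0.5% that of H19 in feeders (0.43). The settings of under 5 reference or Zscan4 UMIs, the median reference gene and the added overlapping genes were chosen after seeing the data. The cause of these changes was not tested, beyond the cells each setting removes. Adding the ambiguous counts was not run, since they are given per gene and not per cell. No paired analysis was possible because the cells of the 4 labelled samples of each condition are pooled without a name. For the same reason no sample could be left out. Depth limited what could be said of Cdkn1c in both classes and of Mest and Snrpn in feeders, each with 143 UMIs or fewer.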

Other observations

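Ambiguous counts, which the authors list per gene and which several genes share, are given over all barcodes. For Igf2 they were 53 beside 396 UMIs in control and 46 beside 1636 UMIs in CX-5461, so their weight differed between the libraries. For Snrpn they were 12 beside 4583 UMIs and 8 beside 1272 UMIs, and for the other 8 genes 0. Of all UMIs of a gene over the cells kept, feeders held 82.0% for H19 in control and 95.9% in CX-5461, 78.3% and 94.8% for Igf2, 62.0% and 41.1% for Grb10, 43.2% and 32.95% for Cdkn1c, 23.4% and 19.6% for Meg3, 19.1% and 13.8% for Rian, and 1.40% and 1.59% for Snrpn, while they were 3.74% and 3.11% of the cells.

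Across thinned feeders, Pearson's r of H19 with Igf2 was 0.23 over 140 control cells and 0.38 over 146 CX-5461 cells, as a description of cells that share library and depth. Within feeders the variance of thinned H19 UMIs was 5.70 times the mean in control and 7.43 times in CX-5461, and that of Meg3 2.47 and 4.16 times, while Grb10 had 1.02 and 0.901 times. The CX-5461 feeder with the most H19 held 369 UMIs of it and the control feeder with the most held 146.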
